A study of Homo sapiens with 12 samples.

Results

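Autophagy and lysosome genes were followed after knockdown of SUPT4H1 in HEK293, a long-established cell line derived from human embryonic kidney. They were taken by name from the protein-coding rows of the count table: the ATG genes, the ULK1 to ULK3 kinases, WIPI1 and WIPI2, the ATG8 family (GABARAP and MAP1LC3 genes), subunits of the V-ATPase proton pump, cathepsins, LAMP1 to LAMP3, and BECN1, SQSTM1, NBR1, OPTN, FYCO1, TFEB and TFE3. This gave 78 of 57704 genes in the table, of which 19760 are protein-coding. Their messenger RNA 3′ ends had been counted in 6 libraries of cells transfected with a pool of SUPT4H1 siRNAs and in 6 libraries of cells transfected with scrambled siRNAs, each at 100 nM for 72 hours. All cells of both groups stably carried the same reporter, an endogenous intronic sequence with DARP-EGFP, and ERCC mix2 standards went to the SUPT4H1 siRNA lysates and mix1 to the scrambled siRNA lysates. Since 1 culture was split and transfected separately for each library, the p-values measure only how far such transfections differ.

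Autophagy wraps cytoplasm in a double membrane, the autophagosome, and delivers it to the lysosome for breakdown. The ULK1 kinase complex starts the process, a phosphatidylinositol 3-kinase complex with ATG9, ATG2 and WIPI proteins builds the membrane, and a ubiquitin-like conjugation system attaches ATG8 proteins to it. Receptors such as SQSTM1 bind cargo to ATG8 proteins, the V-ATPase acidifies the lysosome, and cathepsins digest its content. The transcription factors TFEB and TFE3 bind E-box-like CLEAR elements in promoters of many of these genes.

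Library depth in endogenous counts ranged from 6591194 to 11366971 with SUPT4H1 siRNA and from 7337033 to 20269171 with scrambled siRNA. SUPT4H1, whose product SPT4 pairs with SPT5 in the elongation factor DSIF, stood at 20.8 ± 1.63 CPM with its siRNAs and at 184 ± 9.11 CPM with scrambled siRNA (SD, n = 6 each), where CPM is the library-size-normalised count (per 1000000 endogenous counts after TMM scaling). The annotated same-strand gene AC004687.2 has an exon in the last 500 bases of SUPT4H1, and no value of it was used here. Values of cell type markers in this paragraph are instead CPM without TMM scaling. Of markers known from HEK293 cells, VIM, LHX1, KRT8, KRT18 and NEFL were present in every library, while NEFM and PAX2 were low (group means between 1.01 and 1.58 CPM). Of 14 markers of other cell types, 3 had no count in any library (PTPRC of leukocytes, CDH5 of endothelium and HBB of erythroid cells). The fibroblast collagen gene COL1A1 averaged 4.65 CPM with SUPT4H1 siRNA and 6.31 CPM with scrambled siRNA, the macrophage marker CD68, itself a lysosomal membrane protein, 1.91 and 1.09 CPM, and the other 9 at most 0.74 CPM in either group. The part of other cells in the results was not tested. In a principal component analysis SUPT4H1 siRNA replicate 6 stood at −42.5 on the second component (16.0% of the variance), apart from the other libraries of its group (4.50 to 21.2).

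More of these genes rose than fell in relative abundance with SUPT4H1 siRNA. Of the 78 genes, 61 passed the filter on low counts, and 24 of them rose and 5 fell by edgeR's quasi-likelihood test at a Benjamini-Hochberg adjusted p below 0.05, while 32 were not called. Across all 13811 genes tested, 40.2% changed, of which those that rose were 20.0% and those that fell 20.2% of the genes tested. A rise of 1.5-fold or more was seen for 12 of the 61, against 8.00% of all genes tested, and a fall of that size for 0 of them, against 7.83%. In 20 of the 61, every SUPT4H1 siRNA library lay above every scrambled siRNA library, and in 5 every one lay below, where each pattern held for 10.2% of all genes tested. Their median relative log2 fold change was 0.19, against −0.0015 over all genes. Without SUPT4H1 siRNA replicate 6, 28 rose and 6 fell, but the shares over all genes in that fit are not given here.

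**Figure D1:**
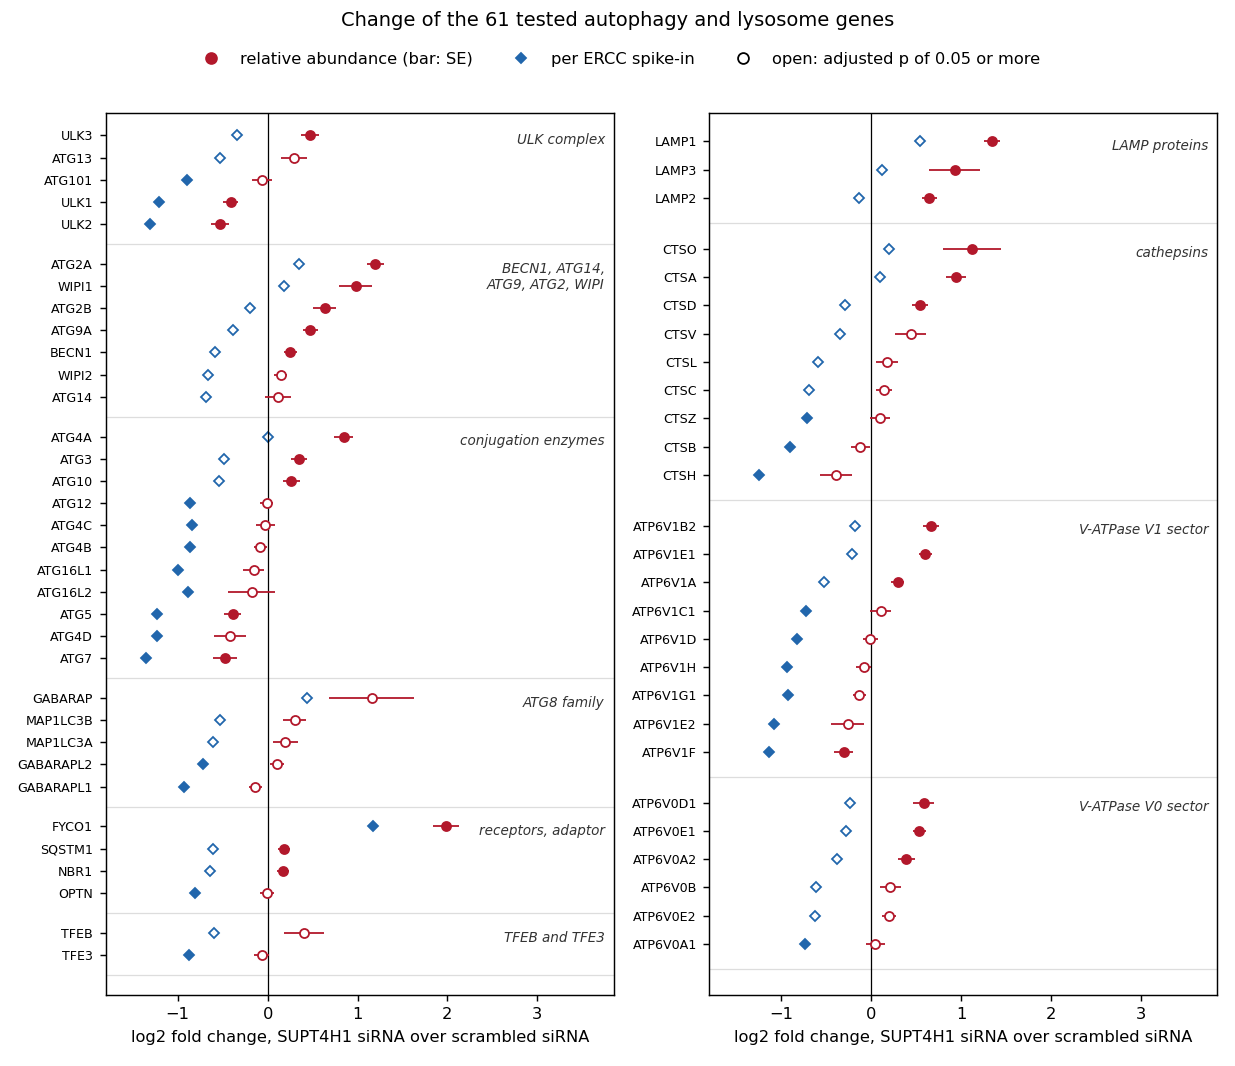
Log2 fold change of SUPT4H1 siRNA over scrambled siRNA for the 61 tested genes, by role, in relative abundance (circles, bars are SE) and per ERCC spike-in (diamonds), with open symbols for an adjusted p of 0.05 or more. FYCO1 (1.98) and LAMP1 (1.34) lie farthest right in relative abundance, ULK2 (−0.53) and ATG7 (−0.48) farthest left, and every spike-in value lies left of its relative value.

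The largest change was that of FYCO1, an adaptor that links ATG8-coated membranes and RAB7 to kinesin motors. FYCO1 (ENSG00000163820, chromosome 3 from 45917899 to 45995824, minus strand, GRCh38) stood at a lowest value of 12.1, a median of 19.1 and a highest value of 21.1 CPM with SUPT4H1 siRNA, against 3.53, 4.67 and 5.35 CPM with scrambled siRNA. The groups did not overlap, and the lowest SUPT4H1 siRNA library was replicate 6. The log2 fold change was 1.98 (SE 0.14, 3.95-fold, edgeR adjusted p = 1.94e-09), and 14 of 13811 genes rose by more. CXCR6, a gene on the opposite strand within the FYCO1 locus, had no count in any library.

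The other genes grouped with FYCO1 encode cargo receptors and moved little. SQSTM1, the receptor also called p62, had a lowest value of 161, a median of 165 and a highest value of 177 CPM with SUPT4H1 siRNA, against 130.4, 150.5 and 156 CPM with scrambled siRNA. Its groups did not overlap, but the gap was small: the log2 fold change was 0.19 (SE 0.07, edgeR adjusted p = 0.033). NBR1, a receptor related to SQSTM1, gave 0.17 (adjusted p = 0.040), and OPTN, a receptor for bacteria and damaged mitochondria, gave −0.01 (adjusted p = 0.95). The SQSTM1 call was lost without SUPT4H1 siRNA replicate 2 or 3 or scrambled siRNA replicate 2 or 4 (adjusted p of 0.054, 0.056, 0.073 and 0.089), and the NBR1 call without SUPT4H1 siRNA replicate 2, 3 or 5 or scrambled siRNA replicate 1, 2, 3 or 4 (adjusted p between 0.057 and 0.094). MRNIP, listed as C5orf45 in the table, has an exon on the opposite strand in the last 500 bases of SQSTM1 and gave 37.8 ± 4.24 CPM with SUPT4H1 siRNA and 43.5 ± 4.17 CPM with scrambled siRNA (SD, n = 6 each).

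All 3 LAMP genes, which encode heavily glycosylated proteins of the lysosomal membrane, rose, where 20.0% of all genes tested did. LAMP1 (ENSG00000185896, chromosome 13 from 113297241 to 113323672, plus strand) had a lowest value of 128, a median of 146 and a highest value of 189 CPM with SUPT4H1 siRNA, against 56.3, 59.2 and 61.8 CPM with scrambled siRNA. The scrambled libraries lay close together, and the lowest SUPT4H1 siRNA library was above the highest of them. The log2 fold change was 1.34 (SE 0.09, 2.54-fold, edgeR adjusted p = 3.02e-10), exceeded by 97 genes. LAMP2, whose product also serves as a receptor in chaperone-mediated autophagy, ran from 88.6 to 105 CPM with a median of 98.7 in the SUPT4H1 siRNA group, and from 54.5 to 70.5 CPM with a median of 62.2 in the scrambled siRNA group. Its log2 fold change was 0.65 (SE 0.08, adjusted p = 3.09e-06), again with no overlap. LAMP3, a member best known from dendritic cells, was near the detection limit, with a lowest value of 1.17, a median of 2.72 and a highest value of 3.20 CPM against 0.59, 1.35 and 1.90 CPM with scrambled siRNA. Those groups overlapped, and the log2 fold change was 0.93 (SE 0.28, adjusted p = 0.012).

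**Figure D2:**
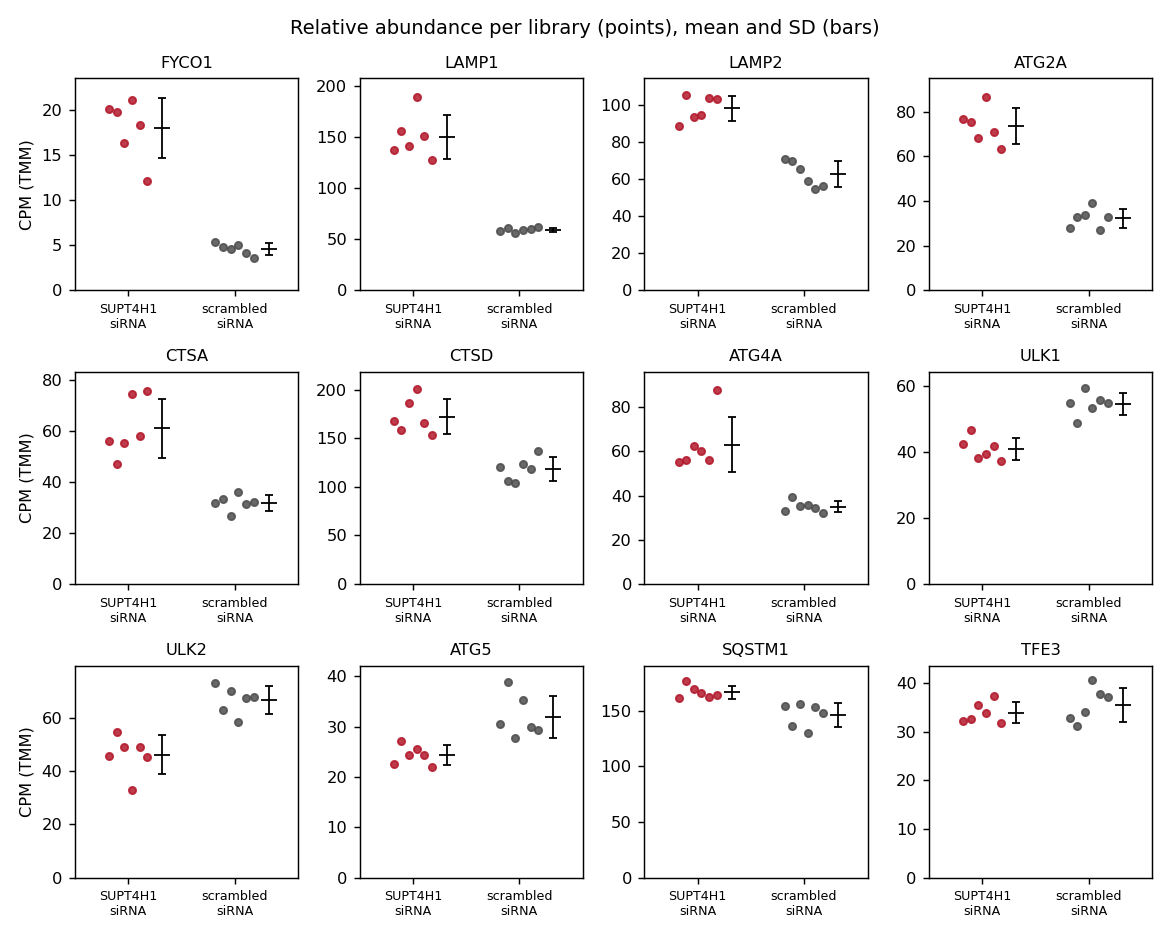
Relative abundance in CPM (TMM-scaled, vertical axes from 0) of 12 genes in each of the 6 libraries per group (points), with mean and SD (bars). SUPT4H1 siRNA libraries of FYCO1 (12.1 to 21.1), LAMP1 (128 to 189) and ATG2A (63.3 to 86.6) lie above all scrambled siRNA libraries, those of ULK1 (37.3 to 46.6) and ULK2 (32.8 to 54.8) lie below, and those of TFE3 overlap.

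Among cathepsins, the digestive proteases of the lysosome, 3 of 9 tested genes rose and 0 fell, where 20.0% and 20.2% of all genes tested did. Their median log2 fold change was 0.18. CTSA, a serine carboxypeptidase that also protects neuraminidase and β-galactosidase in the lysosome, had a lowest value of 47.2, a median of 57.2 and a highest value of 76.0 CPM with SUPT4H1 siRNA, against 26.5, 32.03 and 35.98 CPM with scrambled siRNA. The groups did not overlap, and the log2 fold change was 0.94 (SE 0.11, edgeR adjusted p = 1.08e-06). PLTP, which has an exon on the opposite strand at the 3′ end of CTSA, gave 0.45 ± 0.41 and 1.11 ± 0.23 CPM (SD, n = 6 each). The aspartic protease gene CTSD ranged from 153 to 201 CPM (median 167) with SUPT4H1 siRNA and from 104 to 137 CPM (median 119) with scrambled siRNA, at a log2 fold change of 0.54 (SE 0.08, adjusted p = 3.24e-05). CTSO, a cysteine protease gene, rested on few counts and its groups overlapped: the lowest, median and highest values were 2.02, 3.10 and 3.73 CPM with SUPT4H1 siRNA, against 0.69, 1.26 and 3.39 CPM with scrambled siRNA (log2 1.12, SE 0.32, adjusted p = 0.0082). The cysteine protease genes CTSB (−0.12), CTSL (0.18), CTSC (0.14), CTSZ (0.10), CTSV (0.44) and CTSH (−0.40) were not called (adjusted p from 0.054 to 0.51), although all CTSH values with SUPT4H1 siRNA lay below those with scrambled siRNA. CTSV was called in 4 of the 12 fits without 1 library, those without SUPT4H1 siRNA replicate 3 or scrambled siRNA replicate 1, 2 or 3 (0.49, 0.49, 0.56 and 0.49). CTSE, CTSF, CTSG, CTSK, CTSS and CTSW were below the filter.

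TFEB and TFE3 themselves were not called in relative abundance. TFEB had a lowest value of 3.31, a median of 4.78 and a highest value of 5.71 CPM with SUPT4H1 siRNA, against 2.29, 3.11 and 5.84 CPM with scrambled siRNA, with overlap (log2 0.41, SE 0.22, edgeR adjusted p = 0.15, or 0.55 and 0.045 without scrambled siRNA replicate 4). TFE3 had values of 31.7, 33.3 and 37.3 CPM, against 31.2, 35.5 and 40.6 CPM with scrambled siRNA (log2 −0.07, SE 0.09, adjusted p = 0.58). These are mRNA levels, and the activity of both factors is controlled largely by where the protein resides in the cell. The letters TCACGTGA, the core of the CLEAR element and identical on both strands, were sought in the promoters, from 250 bases before to 50 bases after the gene start (RefSeq, GRCh38.p14), which were found for 62 of the 78 genes. They were present in 5 of these 62 (LAMP1, CTSA, ATG3, ATP6V0D1 and ATP6V1G1), against 1.04% of all 27305 promoters and 1.92% of the promoters of 10300 tested genes. The shorter E-box letters CACGTG, which lie within that core, were in 11 of the 62, against 7.43% of all promoters and 10.3% of those of tested genes. Promoters were found for 18 of the 24 genes that rose. Of these 18, 4 held TCACGTGA and 6 held CACGTG. Of the 31 promoters of other tested genes, 1 held TCACGTGA and 4 held CACGTG. This split was not made over all genes tested, so no link between the letters and the rise can be read from it. Promoters of LAMP1 and CTSA, which rose, and of ATP6V1G1, a V-ATPase subunit gene that was not called, are given 5′ to 3′ with TCACGTGA in capitals.
LAMP1 (chr13:113296989-113297288, plus strand): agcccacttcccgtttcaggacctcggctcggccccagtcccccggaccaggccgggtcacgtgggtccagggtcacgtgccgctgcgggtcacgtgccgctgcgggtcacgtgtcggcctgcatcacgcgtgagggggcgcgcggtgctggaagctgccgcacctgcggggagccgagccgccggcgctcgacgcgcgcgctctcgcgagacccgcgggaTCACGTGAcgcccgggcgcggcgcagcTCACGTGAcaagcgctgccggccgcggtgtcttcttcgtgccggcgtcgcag
CTSA (chr20:45891085-45891384, plus strand): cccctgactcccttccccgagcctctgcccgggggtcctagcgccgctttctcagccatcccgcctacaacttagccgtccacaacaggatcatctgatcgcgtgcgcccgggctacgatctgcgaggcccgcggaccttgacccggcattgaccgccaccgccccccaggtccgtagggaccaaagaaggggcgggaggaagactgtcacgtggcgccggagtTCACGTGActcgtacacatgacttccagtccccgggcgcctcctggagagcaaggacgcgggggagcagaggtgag
ATP6V1G1 (chr9:114587519-114587818, plus strand): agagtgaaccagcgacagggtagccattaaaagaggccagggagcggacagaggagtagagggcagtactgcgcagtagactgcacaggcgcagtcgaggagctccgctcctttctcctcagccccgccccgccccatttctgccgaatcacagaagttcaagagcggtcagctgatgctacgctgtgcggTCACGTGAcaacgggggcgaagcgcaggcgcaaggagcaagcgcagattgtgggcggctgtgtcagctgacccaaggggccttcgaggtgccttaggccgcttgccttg
The capitals begin 29 and 2 bases before the gene start in LAMP1, 26 before it in CTSA and 59 before it in ATP6V1G1. The LAMP1 promoter held CACGTG 6 times in all. A match of letters is a description of the sequence and does not show that a factor was bound there.

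Of the 7 tested genes of the name rule grouped as BECN1, ATG14, ATG9, ATG2 and WIPI, 5 rose and 0 fell. Over all genes tested, 20.0% rose and 20.2% fell. The median log2 fold change of the 7 was 0.48. ATG2A, which encodes a lipid transfer protein that feeds the growing membrane, had a lowest value of 63.3, a median of 73.1 and a highest value of 86.6 CPM with SUPT4H1 siRNA, against 27.1, 32.8 and 39.0 CPM with scrambled siRNA. The groups were far apart, and the log2 fold change was 1.20 (SE 0.10, 2.29-fold, edgeR adjusted p = 6.64e-09). Its paralog ATG2B changed in the same direction with overlapping groups (log2 0.63, SE 0.13, adjusted p = 0.00067). WIPI1, which encodes a reader of phosphatidylinositol 3-phosphate, varied widely with SUPT4H1 siRNA, from 5.24 to 13.9 CPM with a median of 9.02, and lay between 3.79 and 5.30 CPM with a median of 4.80 in scrambled siRNA libraries (log2 0.98, SE 0.18, adjusted p = 0.00025). ARSG, with an exon on the opposite strand at the 3′ end of WIPI1, gave a log2 fold change of −0.27 (adjusted p = 0.26). ATG9A, which encodes a lipid scramblase carried on vesicles, rose (0.48), as did BECN1, the regulatory subunit of the 3-kinase complex (0.25). An annotated same-strand gene, AC068946.2, has an exon in the last 500 bases of ATG9A, no value of it was used here, and tags of both may be counted together, so the ATG9A value is uncertain. The paralog WIPI2 (0.14) and ATG14 (0.11), the subunit that directs the complex to autophagy, were not called. CNTD1, opposite the 3′ end of BECN1, had at most 0.28 CPM on average in either group. ATG9B was below the filter.

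The ULK genes diverged. ULK1 encodes the kinase that starts autophagy and ULK2 its close paralog, and both fell. ULK1 had a lowest value of 37.3, a median of 40.6 and a highest value of 46.6 CPM with SUPT4H1 siRNA, against 48.8, 54.9 and 59.5 CPM with scrambled siRNA (log2 −0.41, SE 0.08, edgeR adjusted p = 0.00032). ULK2 had values of 32.8, 47.3 and 54.8 CPM, against 58.5, 67.7 and 73.0 CPM with scrambled siRNA (log2 −0.53, SE 0.10, adjusted p = 0.00023). Neither gene's groups overlapped. ULK3, a more distant relative, rose, with 93.3, 100.5 and 141 CPM, against 63.4, 79.4 and 87.9 CPM with scrambled siRNA (log2 0.47, SE 0.10, adjusted p = 0.0010). ATG13 and ATG101, partners of ULK1, gave 0.29 (adjusted p = 0.11) and −0.06 (adjusted p = 0.67). AC025259.1, opposite the 3′ end of ATG101, had no count. ATG13 was called without SUPT4H1 siRNA replicate 6 (0.38, adjusted p = 0.016) and without scrambled siRNA replicate 6 (0.39, adjusted p = 0.035).

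Of the 11 genes of the conjugation system 3 rose and 2 fell, where 20.0% and 20.2% of all genes tested did. The median was −0.08. ATG4A, which encodes a protease that trims ATG8 proteins, had a lowest value of 55.2, a median of 58.3 and a highest value of 87.6 CPM with SUPT4H1 siRNA, against 32.2, 34.7 and 39.4 CPM with scrambled siRNA (log2 0.85, SE 0.10, edgeR adjusted p = 2.10e-06). The highest value belonged to replicate 6, and without that library the log2 fold change was 0.73. The related protease genes ATG4B (−0.08), ATG4C (−0.03) and ATG4D (−0.41) were not called, although ATG4D was without SUPT4H1 siRNA replicate 6 (−0.27, adjusted p = 0.048). KRI1, opposite the 3′ end of ATG4D, gave 0.02 (adjusted p = 0.87). ATG7, the activating enzyme of the system, fell, with a lowest value of 4.69, a median of 5.70 and a highest value of 6.76 CPM with SUPT4H1 siRNA, against 7.41, 8.22 and 8.57 CPM with scrambled siRNA (log2 −0.48, SE 0.13, adjusted p = 0.0063). ATG5, the partner of ATG12 in the conjugate that directs ATG8 to the membrane, fell too (−0.39, SE 0.10, adjusted p = 0.0036), with no overlap between the groups. ATG12 (−0.01) and the scaffold genes ATG16L1 (−0.15) and ATG16L2 (−0.18) were not called. FCHSD2, opposite the 3′ end of ATG16L2, gave −0.28 (adjusted p = 0.12). The E2-like enzyme genes ATG3 (0.35, adjusted p = 0.0044) and ATG10 (0.26, adjusted p = 0.029) rose. The ATG10 call was lost without SUPT4H1 siRNA replicate 1 or 3 or scrambled siRNA replicate 2 or 4 (adjusted p of 0.057, 0.062, 0.076 and 0.066). ATG10 and ATG7 share their annotated 3′ ends with exons of RPS23 and VGLL4 on the opposite strand, which gave −0.16 (adjusted p = 0.21) and 0.19 (adjusted p = 0.13).

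None of the 5 tested ATG8 family genes, which encode the small ubiquitin-like proteins that coat the autophagosome, was called. Of all genes tested, 40.2% changed. The median log2 fold change of the 5 was 0.20. GABARAPL2 had a lowest value of 301, a median of 304 and a highest value of 328 CPM with SUPT4H1 siRNA, against 242, 294 and 325 CPM with scrambled siRNA (log2 0.10, SE 0.08, edgeR adjusted p = 0.29). GABARAPL1 had 142, 165 and 188 CPM, against 173, 180 and 196 CPM with scrambled siRNA (log2 −0.13, SE 0.08, adjusted p = 0.16). Both genes overlapped between the groups. MAP1LC3B, the family member most used as an autophagosome marker, had 46.4, 83.0 and 88.4 CPM, against 50.8, 63.8 and 72.3 CPM with scrambled siRNA (log2 0.30, SE 0.13, adjusted p = 0.071). Its lowest value was that of SUPT4H1 siRNA replicate 6, and without this library MAP1LC3B was called at 0.41 (adjusted p = 0.00035). MAP1LC3A had 7.02, 11.99 and 12.9 CPM, against 7.63, 9.9995 and 11.4 CPM with scrambled siRNA (log2 0.20, adjusted p = 0.27). GABARAP was counted only 11 to 55 times per library with SUPT4H1 siRNA and 5 to 45 times with scrambled siRNA, and its log2 fold change of 1.16 (SE 0.47, adjusted p = 0.061) was 0.56 without SUPT4H1 siRNA replicate 6. It was called without SUPT4H1 siRNA replicate 2 or 3 or scrambled siRNA replicate 2 (1.37, 1.29 and 1.47). An annotated same-strand gene, AC120057.2, has an exon in the last 500 bases of GABARAP and had no count. How tags in such shared ends were counted is not known, so the level of GABARAP itself cannot be read from these counts. MAP1LC3B2 and MAP1LC3C were below the filter, and reads of MAP1LC3B and its near-identical copy MAP1LC3B2 may not be separable.

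The V-ATPase, the proton pump of the lysosome, is built of a cytosolic V1 sector that hydrolyses ATP and a membrane V0 sector that carries protons. In the V1 sector 3 of 9 tested genes rose and 1 fell, and in the V0 sector 3 of 6 rose and 0 fell. Over all genes tested, 20.0% rose and 20.2% fell. The median log2 fold changes were −0.01 in V1 and 0.30 in V0. ATP6V1B2, the B subunit of the head, had a lowest value of 300.3, a median of 312 and a highest value of 359 CPM with SUPT4H1 siRNA, against 168, 197 and 233.5 CPM with scrambled siRNA (log2 0.66, SE 0.09, edgeR adjusted p = 3.98e-06). ATP6V1E1, a stalk subunit, had 187, 201 and 223 CPM, against 124, 132 and 153 CPM with scrambled siRNA (log2 0.60, SE 0.07, adjusted p = 2.10e-06). Both were free of overlap, as was ATP6V1A, the catalytic subunit (0.29, adjusted p = 0.0023). ATP6V1F, a subunit of the central rotor, fell by 0.31 on the log2 scale (adjusted p = 0.023), with overlapping groups, and this call was lost without scrambled siRNA replicate 5 or 6 (adjusted p = 0.065 in each case). The V1 genes ATP6V1C1 (0.10), ATP6V1D (−0.01), ATP6V1H (−0.08), ATP6V1G1 (−0.13) and ATP6V1E2 (−0.26) were not called.

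In the V0 sector ATP6V0D1, which encodes the subunit that couples V0 to the rotor, had a lowest value of 25.4, a median of 29.7 and a highest value of 37.9 CPM with SUPT4H1 siRNA, against 17.2, 21.1 and 24.4 CPM with scrambled siRNA (log2 0.58, SE 0.12, edgeR adjusted p = 0.00043). ATP6V0E1, a small membrane subunit, had 157, 178 and 197 CPM, against 116, 119 and 134 CPM with scrambled siRNA (log2 0.54, SE 0.07, adjusted p = 9.78e-06). The a2 subunit gene ATP6V0A2 rose (0.39, adjusted p = 0.0017), and these 3 genes showed no overlap. ATP6V0A1 (0.05), ATP6V0B (0.21) and ATP6V0E2 (0.20) were not called. ATP6V0B (0.30, adjusted p = 0.013) and ATP6V0E2 (0.25, adjusted p = 0.0037) were called without SUPT4H1 siRNA replicate 6, and ATP6V0E2 also without SUPT4H1 siRNA replicate 2 (adjusted p = 0.037). The last 500 bases of ATP6V0E2 hold exons of AC092681.3 on the same strand and of AC092681.1 on the opposite strand. AC092681.3 averaged 0 CPM with SUPT4H1 siRNA and 0.03 CPM with scrambled siRNA, and AC092681.1 had no count. How tags in such shared ends were counted is not known, so the ATP6V0E2 value is uncertain. ATP6V0C, which encodes the proton-carrying ring subunit, had no count in any of the 12 libraries. An annotated same-strand gene, AC093525.2, has an exon at the 3′ end of ATP6V0C and also had no count. Since the counting of tags in such shared ends is not known, nothing can be said here of ATP6V0C. The other V-ATPase genes below the filter were ATP6V0A4, ATP6V0D2, ATP6V1B1, ATP6V1C2, ATP6V1G2, ATP6V1G3 and the read-through gene ATP6V1G2-DDX39B, each with a mean of 1.16 CPM or less in both groups.

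Summed over all 78 genes, the tags made up between 4166 and 4758 CPM in SUPT4H1 siRNA libraries and between 3710 and 3975 CPM in scrambled siRNA libraries, without overlap. The LAMP genes summed to 251 ± 22.2 CPM with SUPT4H1 siRNA and 123 ± 6.76 CPM with scrambled siRNA (SD, n = 6 each). By contrast, the ULK complex genes summed to 241 ± 7.05 CPM with SUPT4H1 siRNA and 243 ± 11.5 CPM with scrambled siRNA (SD, n = 6 each), since ULK1 and ULK2 fell and ULK3 rose. Within groups, the coefficient of variation of the 61 tested genes had a median of 12.4% with SUPT4H1 siRNA and 10.6% with scrambled siRNA.

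Per ERCC spike-in, 1 of these genes was called as higher with SUPT4H1 siRNA. Scaling each library by the standards of subgroup B, which have the same nominal amount in mix 1 and mix 2, 1 of the 61 rose (0.311% of all genes tested did) and 25 fell (59.0% of all genes tested did) by the same edgeR test and threshold. Their median on this scale was −0.62 in log2, which leaves 65.1% of the level in scrambled cells, against −0.82 and 56.7% over all 13811 genes, and 52 of the 61 lay below 0, where 95.7% of all genes tested did. The 9 genes above 0 were FYCO1, LAMP1, GABARAP, ATG2A, CTSO, WIPI1, LAMP3, CTSA and ATG4A. FYCO1 was the gene that rose, to 14.4 ± 7.42 spike-in-scaled CPM with SUPT4H1 siRNA, against 6.44 ± 2.26 with scrambled siRNA (SD, n = 6 each, log2 1.17, adjusted p = 0.0031), although the lowest SUPT4H1 siRNA library (7.59) lay under the highest scrambled siRNA library (10.4). LAMP1 stood at 120 ± 59.8 and 82.5 ± 21.1 spike-in-scaled CPM (SD, n = 6 each, log2 0.54, adjusted p = 0.12), and was not called. ATG2A (0.35), CTSA (0.09), ATG4A (0.01), LAMP2 (−0.14) and ATP6V1B2 (−0.18) were likewise not called, with adjusted p of 0.31 or more. SUPT4H1 siRNA replicate 5 was the highest of its group for FYCO1 (27.9, others 7.59 to 16.1) and LAMP1 (230, others 65.6 to 130). It had 73521 ERCC counts, where the others of its group had 128702 or more, and it raises the means and widens the SDs given for that group. Scrambled siRNA replicate 4 was likewise the highest of its group for FYCO1 (10.4, others 4.31 to 7.28) and LAMP1 (122, others 58.2 to 84.8). That library had 42392 ERCC counts, where the others of its group had 145004 or more. It raises the scrambled siRNA means and SDs, and the FYCO1 overlap rests on it.

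The genes that fell in relative abundance fell further on this scale. ULK1 stood at 32.8 ± 16.3 spike-in-scaled CPM with SUPT4H1 siRNA and 75.6 ± 18.01 with scrambled siRNA (SD, n = 6 each, log2 −1.21, edgeR adjusted p = 0.0013). Its highest SUPT4H1 siRNA library, replicate 5 at 63.4, lay just above its lowest scrambled siRNA library (61.5). The other SUPT4H1 siRNA libraries lay at 37.9 or less. ULK2 was at 40.4% of its level in scrambled cells (log2 −1.31, adjusted p = 0.00054), ATG5 at 42.8%, ATG7 at 39.2% and ATP6V1F at 45.6%. Of the 24 genes that rose in relative abundance 0 fell on this scale, all 5 that fell in relative abundance fell here, and 20 of the 32 that were not called did. Both scales use the same counts, and the median over all genes tested moved from −0.0015 to −0.82 in log2. These counts and the further falls above therefore follow largely from a shift common to the genes. TFE3, not called in relative abundance, fell to 54.4% of its level in scrambled cells (adjusted p = 0.016), and GABARAPL1 fell to 52.6% (adjusted p = 0.0098). The count of falls moved with single libraries: it was 14 without SUPT4H1 siRNA replicate 1, 49 without SUPT4H1 siRNA replicate 5 and 15 without scrambled siRNA replicate 4. The share of all genes tested that fell in these fits is not given here. Whether these counts are high or low against all genes therefore cannot be read from them. Each siRNA group received its own ERCC mix, so unequal dilution of the mixes and unequal mRNA per lysate cannot be told apart, and in bulk lysates fewer cells and less RNA per cell cannot be told apart either, beyond the nominal 1000000 cells per sample that the labels give.

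**Figure D3:**
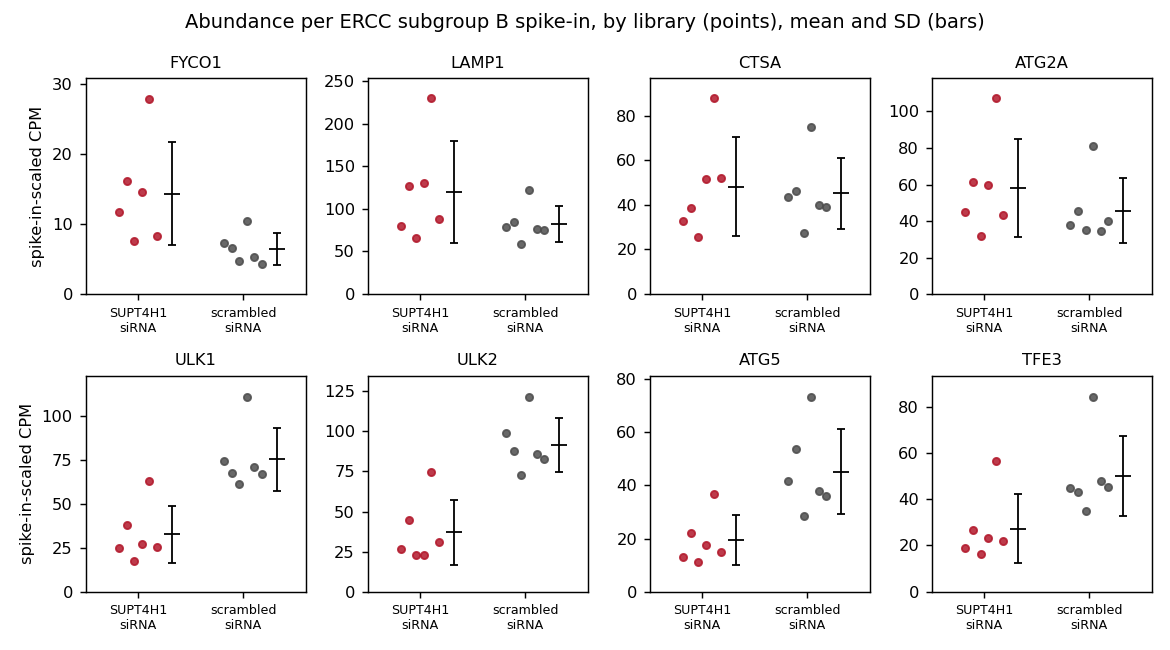
Spike-in-scaled CPM (scaled by ERCC subgroup B, vertical axes from 0) of 8 genes in each of the 6 libraries per group (points), with mean and SD (bars). FYCO1 averages 14.4 with SUPT4H1 siRNA and 6.44 with scrambled siRNA, and LAMP1, CTSA and ATG2A overlap between the groups. The means of ULK1 (32.8 against 75.6) and ULK2 (37.1 against 91.7) are lower with SUPT4H1 siRNA. For both, the highest SUPT4H1 siRNA library, replicate 5, lies just above the lowest scrambled siRNA library.

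Other genes of the lysosome outside the name rule showed rises more often than falls. The lists here and in the next paragraph were chosen with earlier results of these data known, so they are no independent support. Over all genes tested, 20.0% rose and 20.2% fell. Of 31 tested hydrolase and activator genes 17 rose and 4 fell (median 0.31 in relative log2). They included the tripeptidyl peptidase gene TPP1 (1.44, SE 0.12, edgeR adjusted p = 8.73e-09), which stood at 45.8 ± 5.34 CPM with SUPT4H1 siRNA and 17.0 ± 3.08 CPM with scrambled siRNA (SD, n = 6 each), the palmitoyl thioesterase gene PPT1 (1.12), the sulfatase gene ARSA (1.00) and NEU1 (0.96), the neuraminidase that CTSA protects. Of 17 tested membrane and sorting protein genes 11 rose and 3 fell (median 0.38). OSTM1, partner of a lysosomal chloride transporter, rose (1.29), as did the sialic acid exporter gene SLC17A5 (0.61) and the tetraspanin gene CD63 (0.58), while the sorting receptor gene SORT1 fell (−0.42). Of 6 genes of the HOPS complex, which tethers autophagosomes to lysosomes, 3 rose and 0 fell (VPS18 at 0.82, VPS33A at 0.48 and VPS11 at 0.34).

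Regulators and further autophagy factors were more mixed, where 20.0% of all genes tested rose and 20.2% fell. Of 24 genes of mTORC1 and lysosomal nutrient sensing 9 rose and 3 fell (median 0.11), with the Rag GTPase gene RRAGA at 0.61, the Ragulator gene LAMTOR2 at 0.60, and the sestrin genes SESN3 at 0.72 and SESN1 at 0.42. Of 27 autophagy factors outside the name rule 12 rose and 4 fell (median 0.06). RUBCN, which encodes an inhibitor of autophagosome maturation, rose (0.88), and so did the mitophagy receptor gene BNIP3L (0.89). The WIPI family gene WDR45B (−0.62) and the receptor gene CALCOCO2 (−0.48) fell. Among 10 V-ATPase assembly and accessory genes 2 rose and 2 fell (median −0.11), the accessory subunit genes ATP6AP2 (0.30) and ATP6AP1 (0.29) against OXR1 (−0.65) and DMXL2 (−0.41). Per spike-in, 0 genes of these 6 lists rose, against 0.311% of all genes tested. On that scale 7 hydrolase and activator genes, 4 membrane and sorting genes, 0 HOPS genes, 11 nutrient-sensing genes, 15 autophagy factors and 6 V-ATPase assembly and accessory genes fell, against 59.0% of all genes tested.

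**Figure D4:**
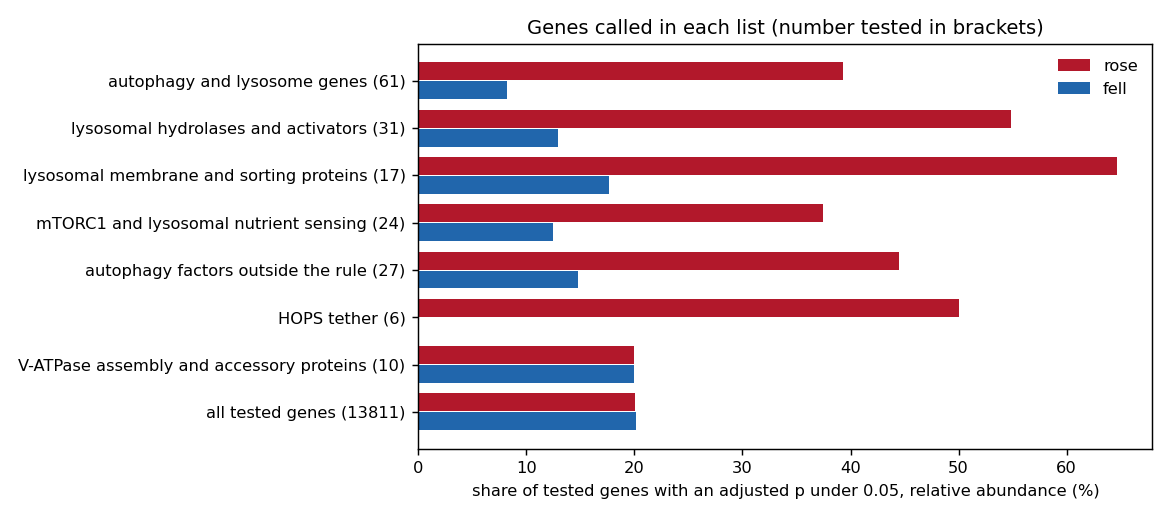
Share of the tested genes of each list that rose or fell in relative abundance with SUPT4H1 siRNA (adjusted p under 0.05, horizontal axis in percent from 0), with the number of tested genes in brackets. Rises outnumber falls in every list but that of V-ATPase assembly and accessory proteins, where 2 rose and 2 fell, while over all 13811 tested genes the shares are 20.0% and 20.2%.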

How the data were processed

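For 12 QuantSeq 3′ mRNA libraries the authors deposited unnormalised read counts in 1 table, with 57704 genes, 92 ERCC standards and 1 reporter row. STAR, MultiQC, FastQC 0.11.5 and R 3.4.3 were used with GRCh38.p10, per the submitters' processing notes. Which tool counted, with which annotation and strand setting, is not given in the sources used here; therefore tested genes whose last 500 bases hold an exon of another gene in GENCODE release 29 are named with that neighbour.

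The test was edgeR's robust quasi-likelihood test (edgeR 4.0.16, R 4.3.3) after filterByExpr, SUPT4H1 siRNA against scrambled siRNA without covariates, with Benjamini-Hochberg values over all 13811 genes tested. Scaling used TMM factors of the endogenous genes or, in a second fit, the total of the 23 subgroup B standards of the ERCC mixes. Subgroups were assigned from general knowledge of the product. The labels of C and D were exchanged after their counts had shown the nominal ratio of one another. Relative to the subgroup B total, log2 medians of A to D then lay at −2.03, −0.015, 0.59 and 0.99, where −2, 0, 0.58 and 1 are nominal. They rest on 5 standards of A and 7 of each other subgroup. The B median is near 0 by construction, and C and D were labelled from these counts, so these medians are no independent check of the scaling. A depth of 6591194 to 20269171 counts per library limits precision for genes near the filter.

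The genes of the name rule and the lists were chosen with earlier results of these data known. Every gene of the rule may be named, with values per library for up to 2 called genes of each role, TFEB, TFE3, SQSTM1 and the ATG8 family, plus contrasts such as ULK1 and CTSD. From each other list up to 4 called genes by adjusted p are named. Alternatives were DESeq2 1.42.0, limma-voom (limma 3.58.1), other filters, a block for the replicate number, a covariate for the RNA integrity number, ERCC subgroup C and leaving out each library. The scripts were tested on simulated counts.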

Additional observations from a re-analysis of the deposited data

Results flagged for a closer look

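Of 124 sets of 6 values examined for the tested genes and SUPT4H1, 6 held a library whose gap to the others passed the 95% critical value of Dixon's ratio, where chance gives about 1 in 20, or 6.2. In 5 of the 6 the library was SUPT4H1 siRNA replicate 6. That library had ATG4A at 87.6 CPM, where the others of its group lay between 55.2 and 62.4 CPM, and GABARAP at 8.04 CPM (others 0.954 to 2.69). It was low for MAP1LC3B at 46.4 CPM (others 76.2 to 88.4), for MAP1LC3A at 7.02 CPM (others 11.4 to 12.9) and for ATG4D at 9.07 CPM (others 20.2 to 25.5). Scrambled siRNA replicate 1 had BECN1 at 43.7 CPM, where the others lay between 48.7 and 49.7 CPM. Without SUPT4H1 siRNA replicate 6 the log2 fold changes were 0.73 for ATG4A, 0.41 for MAP1LC3B and −0.27 for ATG4D.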

How the results depend on the processing

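In relative abundance, 25 of the 29 called genes kept their direction and an adjusted p under 0.05 in each of the 18 alternatives that tested them, and none of the 61 reversed as a called value. The exceptions were NBR1 (lost in 10), SQSTM1 (6), ATG10 (5) and ATP6V1F (4). DESeq2 gave 26 risen and 5 fallen, limma-voom 24 and 5, no filter on low counts 23 and 5, a mean of at least 5 CPM 23 and 5, and the RNA integrity number as a covariate 24 and 4. Leaving out 1 library gave 22 to 28 risen and 4 to 6 fallen. Per spike-in, leaving out 1 library gave 14 to 49 fallen and 1 risen in each fit. The cause of this spread was not tested. ERCC subgroup C gave 41 fallen and 1 risen, but its totals were not corrected for its nominal log2 ratio of 0.58 between the mixes. That ratio lowers every gene with SUPT4H1 siRNA, so this count is not comparable with that of subgroup B. Same-numbered libraries did not deviate together (correlations from −0.29 to 0.05, and 0 of 6 SUPT4H1 siRNA libraries correlated best with their own number). No pairing by number was seen, but noise of single libraries could hide one, so pairing is not excluded. With the replicate number as a block 22 rose and 4 fell in relative abundance, and 1 rose and 34 fell per spike-in. Shares over all genes tested are not given here for these alternatives, so the counts show only how calls among these genes moved. SUPT4H1 fell in every alternative. Depth limits CTSO, LAMP3, TFEB and GABARAP, which were counted few times per library.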
